A study of Drosophila melanogaster with 16 samples.

Results

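Drosophila metallothioneins are small proteins rich in cysteine that bind copper, zinc and cadmium. Their genes are switched on by the zinc-finger factor MTF-1, which binds metal response elements in their promoters when metal is in excess. MtnA is known mainly for protection from copper and MtnB for protection from cadmium, and in larvae both are expressed in the gut, where the copper cells of the middle midgut are a classical site of metal storage. Here the genes were taken as all probesets that map to a single gene whose symbol begins with Mtn. The rule gave 4 of the 18952 probesets, 1 each for MtnA, MtnB, MtnC and MtnD, and all 4 genes were among the 8862 tested. MtnC passed the filter on low values only through 2 arrays.

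RNA came from naïve Drosophila melanogaster embryos, whose mothers were mutant for bcd (allele E1), nos (allele L7) and tsl, so that head to tail patterning was missing in every group, WT included. The mothers also carried da-Gal4, which drives UAS transgenes throughout the embryo, and were crossed to males with the transgene. The 8 genotypes had 2 Affymetrix Drosophila 2 arrays each, and every array held pooled RNA of about 50 embryos aged 4 to 16 h. Wg++ overexpressed the Wnt ligand Wingless, and arm∆N expressed Armadillo (β-catenin) without the N-terminal stretch through which it is marked for degradation. tcf∆N-long expressed a TCF that lacks only the Armadillo-binding region, while tcf∆N-short also lacks the Groucho-binding sequence and the C-clamp, and arm∆N-tcf∆N-short combined both transgenes. DisArmed expressed an Armadillo that lacks the C-terminal transactivation domain and is mutated in its Pygopus binding site, Otk++ overexpressed the PTK7-related receptor Off-track, and WT naïve embryos expressed no transgene. All values are log2 intensities after GC-RMA, between 2.289 and 13.77 on these 16 arrays. wg averaged 10.09 ± 0.08 in Wg++ and 6.41 ± 0.02 in WT (SD, n = 2 arrays each). pan, which encodes TCF, averaged 10.81, 11.10 and 10.64 in tcf∆N-short, tcf∆N-long and arm∆N-tcf∆N-short, against 4.98 in WT, whereas otk, at 7.65 in Otk++ and 7.01 in WT, was not called (log2 difference 0.64, adjusted p = 0.319), and DisArmed averaged 7.41. arm was not analysed here, which leaves arm∆N and DisArmed without such a check. Because these are bulk samples, fewer cells of a type and less RNA per cell cannot be told apart.

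The 4 genes lie on chromosome 3R and are protein coding (Release 6 plus ISO1 MT assembly). MtnA spans 9783407 to 9784370. MtnC (20360308 to 20360634) and MtnB (20503102 to 20503746) are 142.5 kb apart, and MtnD (20534962 to 20535301) lies beyond MtnB. MtnE, at 20534021 to 20534704, sits between MtnB and MtnD, with 257 bases between MtnE and MtnD. MtnE and MtnF were not analysed here.

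MtnB was higher than in WT in the embryos that expressed Wg, activated Armadillo or the long TCF fragment, and close to the floor of the measurement in the other 5 genotypes. The arrays read 5.64 and 4.63 in Wg++, 4.96 and 6.26 in arm∆N, and 4.20 and 4.66 in tcf∆N-long, against 2.64 and 2.5 in WT. All 6 arrays of these 3 genotypes lay above every array of the other 5, whose highest was 3.39. Those others read 2.52 and 2.71 in tcf∆N-short, 2.42 and 3.39 in arm∆N-tcf∆N-short, 2.29 and 2.30 in DisArmed, and 2.41 and 2.53 in Otk++. For each pair of genotypes compared, calls required more than a 1.5-fold difference either way and a false discovery rate under 10% by limma, with Benjamini-Hochberg adjustment over all genes tested. Standard errors (SE) are on the log2 scale.

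**Figure D1:**
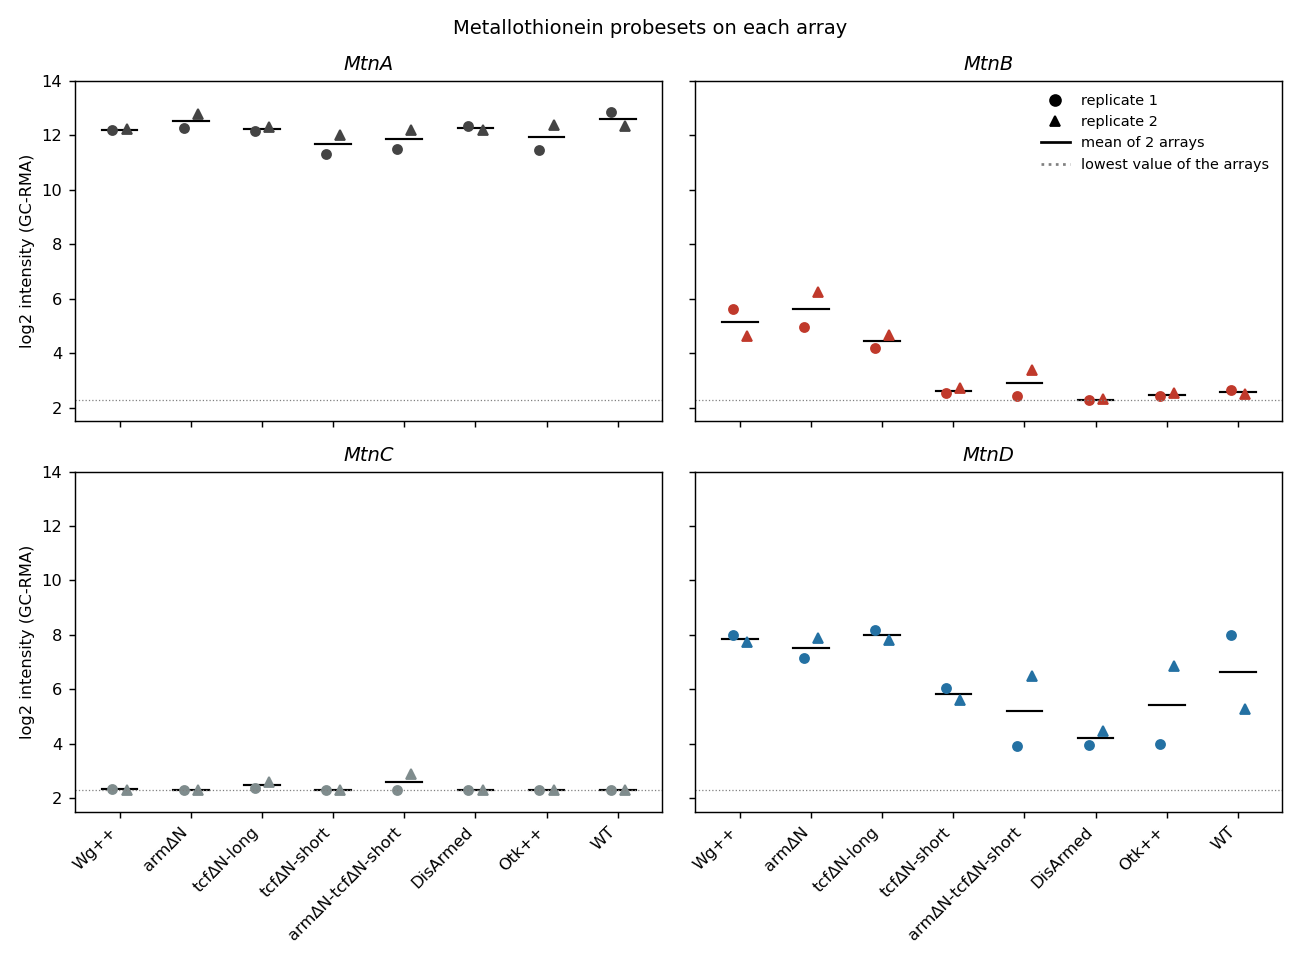
Log2 intensity (vertical axis) of the 4 metallothionein probesets on each array, by genotype (horizontal axis). Circles and triangles are replicates 1 and 2, black lines are the means of 2 arrays, and the dotted line is the lowest value of the arrays (2.289). MtnB stands at 4.20 or above in Wg++, arm∆N and tcf∆N-long and at 3.39 or below elsewhere, MtnA stays between 11.32 and 12.88, and the MtnD arrays of arm∆N-tcf∆N-short, Otk++ and WT are far apart.

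In Wg++ against WT, 1 of the 4 genes was called, MtnB, where 40.8% of all genes tested were called. It was 5.92-fold higher than in WT (log2 fold change 2.57, SE 0.45, adjusted p = 0.00218). In arm∆N, MtnB was again the 1 gene of 4 called, with 19.6% of all genes called, and it was 8.25-fold higher than in WT (log2 fold change 3.04, SE 0.45, adjusted p = 0.00242). In tcf∆N-long 3.74% of all genes were called, and of the 4 genes this was MtnB alone, 3.63-fold higher (log2 fold change 1.86, SE 0.45, adjusted p = 0.0692). WT lay close to the lowest value of the arrays, where GC-RMA values carry little signal over background. The call in tcf∆N-long was lost when any 1 of its 2 arrays or of the 2 WT arrays was left out, with adjusted p between 0.125 and 0.355, while the log2 fold change remained between 1.63 and 2.09. Each of these comparisons shares the same 2 WT arrays.

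MtnB was not called in the other 4 comparisons with WT. On the log2 scale tcf∆N-short differed from WT by 0.05 (adjusted p = 0.969), arm∆N-tcf∆N-short by 0.34 (adjusted p = 0.945), DisArmed by −0.27 (adjusted p = 0.989) and Otk++ by −0.10 (adjusted p = 0.952). With WT near the lowest value, a decrease had little room to be measured. Of the 4 metallothionein genes, none was called in these 4 comparisons, where limma called 7.74% of all genes in tcf∆N-short, 3.18% in arm∆N-tcf∆N-short, 0.598% in DisArmed and 0.327% in Otk++. At an unadjusted p under 0.05 there was 1 in tcf∆N-short (MtnA), 0 in arm∆N-tcf∆N-short, 1 in DisArmed (MtnD) and 0 in Otk++. Over all 7 contrasts with WT, limma's F test at a false discovery rate under 1% called MtnB (F = 17.88, adjusted p = 0.00124) and none of the other 3, while it called 12.3% of all genes. The adjusted p of that test was 0.298 for MtnA, 0.676 for MtnC and 0.0796 for MtnD.

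**Figure D2:**
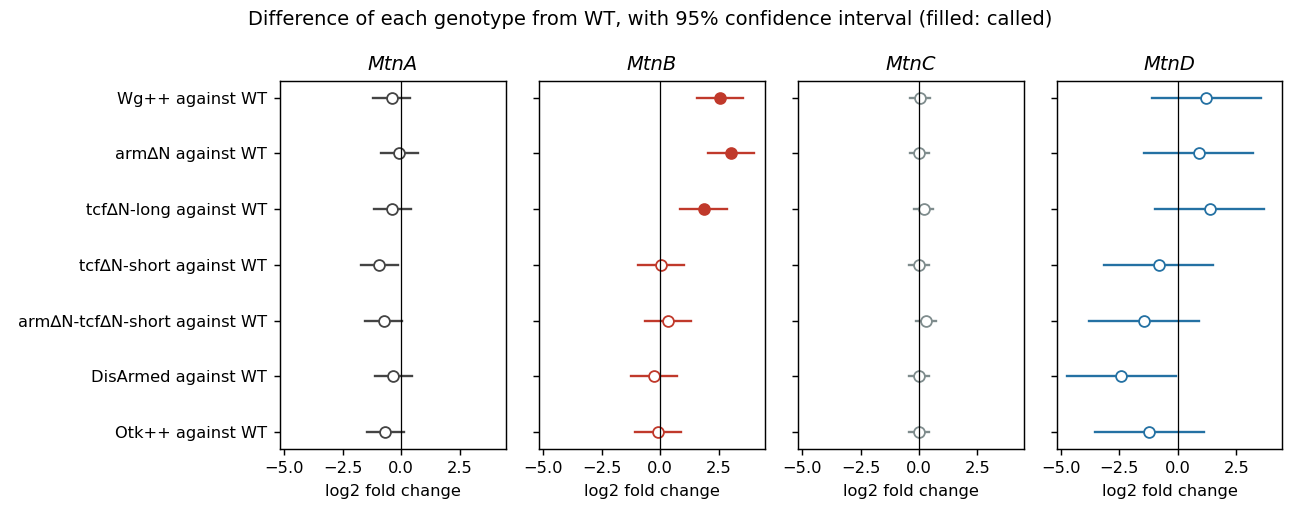
Log2 fold change against WT (horizontal axis, points with 95% confidence interval from limma) of each metallothionein gene in the 7 other genotypes (rows), with filled points for called genes. The 3 filled points are MtnB in Wg++ (2.57), arm∆N (3.04) and tcf∆N-long (1.86), and the intervals of MtnD are the widest of the 4 genes.

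The design allows the effect of activated Armadillo to be read with and without the short TCF fragment. MtnB was lower in arm∆N-tcf∆N-short than in arm∆N (log2 difference −2.71, adjusted p = 0.00347), in a comparison that called 11.6% of all genes. Between arm∆N-tcf∆N-short and tcf∆N-short it differed by 0.28 (95% confidence interval −0.70 to 1.27, adjusted p = 0.945), and 0.169% of genes were called. The effect of arm∆N was smaller by 2.76 on the log2 scale when tcf∆N-short was present (interaction −2.76, SE 0.63, adjusted p = 0.0352, with 11.2% of all genes called). In fits of only the arrays compared, neither the interaction (adjusted p = 0.162) nor arm∆N-tcf∆N-short against arm∆N (adjusted p = 0.163) was called. arm∆N exceeded tcf∆N-short by 2.99 (adjusted p = 0.0015, 13% of genes called). In these comparisons MtnB was the 1 gene of 4 called, except between arm∆N-tcf∆N-short and tcf∆N-short, where none of the 4 was called or had an unadjusted p under 0.05.

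The shortened TCF proteins differed from each other in MtnB. tcf∆N-short was lower than tcf∆N-long (log2 difference −1.81, SE 0.45, adjusted p = 0.0793), and 3.19% of all genes were called. This call was also lost without any 1 of the 4 arrays compared (adjusted p 0.107 to 0.488). The arrays labelled Wg++ and Otk++ differed too, although otk itself was not called in Otk++ against WT. MtnB was 2.67 higher on the log2 scale in Wg++ than in Otk++ (adjusted p = 0.00225, 36.2% of genes called). Wg++ and arm∆N did not differ beyond their spread, at −0.48 (95% confidence interval −1.47 to 0.51, adjusted p = 0.438). In that comparison 37.1% of all genes and none of the 4 metallothionein genes were called, and none of the 4 had an unadjusted p under 0.05.

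The genotype means of MtnB ran in the order arm∆N (5.61 ± 0.92), Wg++ (5.13 ± 0.71), tcf∆N-long (4.43 ± 0.32), arm∆N-tcf∆N-short (2.90 ± 0.69), tcf∆N-short (2.62 ± 0.13), WT (2.57 ± 0.10), Otk++ (2.47 ± 0.08) and DisArmed (2.30 ± 0.01; SD, n = 2 arrays each). No genotype was called against its neighbour in this order. All 28 pairs were then tested, a step chosen after the values were seen, and pairs that share a genotype share its arrays. MtnB was called in 14 pairs, in which the share of all genes called ran between 1.94% and 40.8%. Of the pairs not given above, 28.1% of genes were called in Wg++ against tcf∆N-short, 8.98% in arm∆N against DisArmed, 14% in arm∆N against Otk++, 7.2% in tcf∆N-long against Otk++ (MtnB 1.96, adjusted p = 0.0384) and 1.94% in tcf∆N-long against DisArmed (MtnB 2.13, adjusted p = 0.0498). The genotypes were split into 3 higher and 5 lower by these same MtnB values. Calls were therefore bound to fall mainly across the split. All 14 set Wg++, arm∆N or tcf∆N-long against one of the other 5 genotypes, out of 15 such pairs. The remaining one, tcf∆N-long against arm∆N-tcf∆N-short, differed by 1.52 (95% confidence interval 0.54 to 2.51, adjusted p = 0.201). None of the 3 pairs within the higher genotypes and none of the 10 within the lower ones was called by limma.

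MtnD, the gene nearest to MtnB among those measured, showed a similar order with far more spread between the 2 arrays of a genotype. It read 7.98 and 7.74 in Wg++, 7.15 and 7.87 in arm∆N, and 8.16 and 7.81 in tcf∆N-long, against 8.01 and 5.26 in WT. It read 6.05 and 5.59 in tcf∆N-short, 3.90 and 6.47 in arm∆N-tcf∆N-short, 3.95 and 4.48 in DisArmed, and 3.98 and 6.85 in Otk++. The 3 genotypes with high MtnB were thus between 7.15 and 8.16 on all 6 arrays, whereas the WT arrays spanned 2.75 and overlapped the arrays of every genotype but DisArmed. The residual SD of MtnD, 1.22, was larger than that of 99.7% of the genes tested (median 0.298), against 0.387 for MtnA, 0.496 for MtnB and 0.161 for MtnC.

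MtnD was not called against WT in any genotype. On the log2 scale Wg++ differed from WT by 1.22 (adjusted p = 0.4), arm∆N by 0.88 (adjusted p = 0.628), tcf∆N-long by 1.35 (adjusted p = 0.559), tcf∆N-short by −0.81 (adjusted p = 0.728), arm∆N-tcf∆N-short by −1.45 (adjusted p = 0.795), DisArmed by −2.42 (adjusted p = 0.649) and Otk++ by −1.22 (adjusted p = 0.6). The 95% confidence interval in DisArmed ran between −4.75 and −0.08. These directions rest on the WT arrays: without WT replicate 2 the log2 fold change was −0.15 in Wg++, −0.50 in arm∆N and −0.03 in tcf∆N-long, and without WT replicate 1 it was 0.56 in tcf∆N-short and 0.15 in Otk++.

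Over all 28 pairs of genotypes, those with WT included, MtnD was called in 2. It was higher in Wg++ than in DisArmed by 3.64 on the log2 scale (95% confidence interval 1.31 to 5.98, adjusted p = 0.0232, 37.6% of all genes called) and higher in Wg++ than in arm∆N-tcf∆N-short by 2.67 (95% confidence interval 0.34 to 5.01, adjusted p = 0.0739, 39.1% of all genes called). In Wg++ against Otk++ it was 2.45 (adjusted p = 0.104) and was not called. tcf∆N-long exceeded DisArmed by 3.77 (adjusted p = 0.168) and was not called. The count of 2 pairs depended on single arrays: it was 0 without Wg++ replicate 1, 1 without Wg++ replicate 2 or DisArmed replicate 1, 4 without WT replicate 1, WT replicate 2, Otk++ replicate 1 or arm∆N-tcf∆N-short replicate 2, and 7 without Otk++ replicate 2. Its means ran in the order tcf∆N-long (7.99), Wg++ (7.86), arm∆N (7.51), WT (6.64), tcf∆N-short (5.82), Otk++ (5.41), arm∆N-tcf∆N-short (5.18) and DisArmed (4.22), and none of the 7 neighbouring pairs was called.

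MtnA, the main copper-responsive member, was measured at a high level in every genotype and moved little. It read 12.20 and 12.22 in Wg++, 12.29 and 12.79 in arm∆N, 12.16 and 12.32 in tcf∆N-long, 11.32 and 12.02 in tcf∆N-short, 11.52 and 12.21 in arm∆N-tcf∆N-short, 12.35 and 12.20 in DisArmed, and 11.48 and 12.40 in Otk++, against 12.88 and 12.35 in WT. The 2 WT arrays overlapped those of arm∆N and Otk++ and lay above the rest, over the higher DisArmed array by less than the rounding. No genotype was called, and all 7 log2 fold changes were negative, between −0.94 and −0.07, with the same WT arrays in each. The lowest was that of tcf∆N-short (−0.94, 95% confidence interval −1.73 to −0.15, adjusted p = 0.18), and none of the 28 pairs of genotypes was called.

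MtnC was at or next to the lowest value throughout. It was equal to the lowest value on 10 of 16 arrays, both WT arrays among them. The highest arrays were replicate 2 of arm∆N-tcf∆N-short, at 2.90, and replicate 2 of tcf∆N-long, at 2.59, while their replicates 1 read 2.29 and 2.38. The remaining 3 arrays above the lowest value were at 2.35 or less, and no pair of genotypes was called.

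Across the 16 arrays MtnB and MtnD had a Pearson correlation of 0.74 (Spearman 0.80), and of 0.84 over the 8 genotype means, but of 0.39 (Spearman 0.38) over the differences between the 2 replicates of each genotype. These are descriptions, since arrays of 1 genotype share their treatment and both genes share each array's RNA and normalization. MtnA and MtnD correlated at 0.55 over the arrays and at 0.43 over the genotype means. Within genotypes, the difference of replicate 1 minus replicate 2 of MtnD was 2.75 in WT, −2.87 in Otk++ and −2.58 in arm∆N-tcf∆N-short, and that of MtnA was 0.53, −0.92 and −0.69 in the same order. Over all 8 genotypes these differences had a Pearson correlation of 0.79 (Spearman 0.55), they had the same sign in 4 of 8, and 259 of the 8862 genes had a higher Pearson correlation with those of MtnD.

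The 5 genes whose genotype means were most like those of MtnB, by Pearson correlation over the 8 means, were CG30046 (0.955), CG2641 (0.945), meng (0.935), CG4367 (0.927) and CG15044 (0.924). They differed in size. The range of the genotype means was 0.65 in CG30046, 0.87 in CG2641 and 1.43 in meng. It was 5.18 in CG4367 and 2.66 in CG15044, against 3.32 in MtnB. CG30046 stayed between 2.55 and 3.42 on all arrays. CG4367 had log2 fold changes of 4.47 in Wg++ (adjusted p = 0.000155) and 5.08 in arm∆N (adjusted p = 5.86e-05) and was not called in tcf∆N-long, at 0.91 (adjusted p = 0.286). CG15044 had 2.07 in Wg++ (adjusted p = 0.00702) and 2.03 in arm∆N (adjusted p = 0.0191), and 1.37 in tcf∆N-long (adjusted p = 0.164). CG2641 was called in arm∆N alone among the 7 comparisons (0.64), and CG30046 and meng in none. None of the 5 was called in tcf∆N-long.

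**Figure D3:**
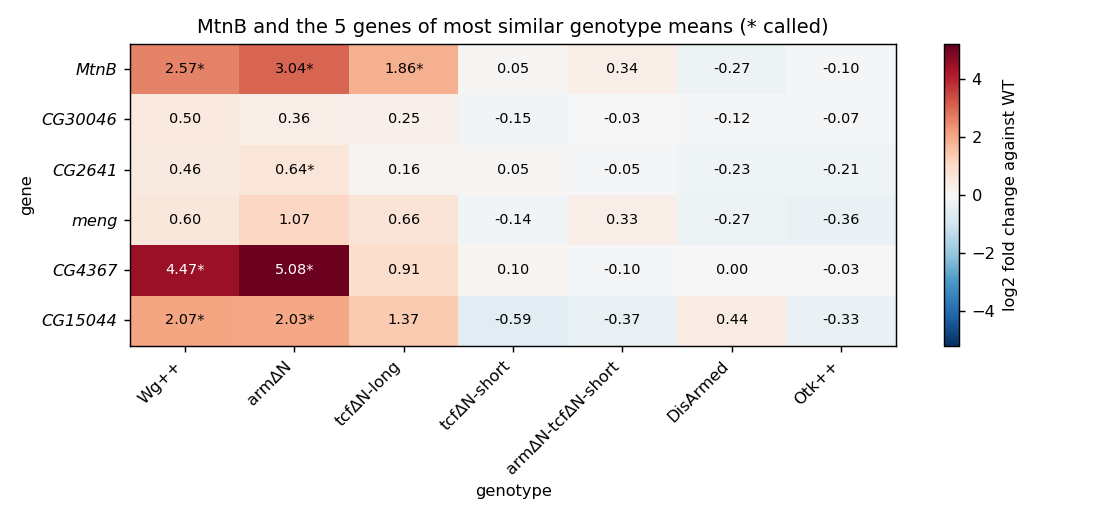
Log2 fold change against WT (colour and printed value) of MtnB and the 5 genes with the most similar genotype means (rows) in 7 genotypes (columns), with an asterisk for called genes. CG4367 and CG15044 carry asterisks in Wg++ and arm∆N, as MtnB does, and MtnB is the single row with one in tcf∆N-long (1.86).

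For MtnD the most similar genes were CG30046 (0.858), CG13323 (0.857), Mtap (0.849), the cytochrome P450 gene Cyp6a21 (0.842) and MtnB itself (0.838). The range of the genotype means was 1.43 in CG13323, 0.36 in Mtap and 0.53 in Cyp6a21, against 3.77 in MtnD. CG13323 was called in the same 3 genotypes as MtnB, with log2 fold changes of 0.88 in Wg++ (adjusted p = 0.0386), 0.82 in arm∆N (adjusted p = 0.0908) and 1.34 in tcf∆N-long (adjusted p = 0.0505). For MtnA they were CG15127 (0.962), CG34288 (0.928), CG10300 (0.924), CG14642 (0.920) and M7BP (0.907). MtnC, close to the lowest value, was most like PGRP-SB1 (0.970), a peptidoglycan recognition protein gene, then Cpr47Ee (0.928), CG5404 (0.926), bnk (0.925) and Keap1 (0.923). Cpr47Ee (2.29 to 2.83), CG5404 (2.35 to 3.06) and bnk (2.32 to 3.24) were also near the lowest value. PGRP-SB1 read 2.46 to 3.94 and Keap1 5.52 to 6.40. Over 8 means such values are descriptions only.

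The regulator and the other genes of copper handling were examined beside the metallothioneins. MTF-1 was not called in any genotype. It read 5.71 and 5.69 in Wg++, 6.0 and 6.30 in arm∆N, and 6.36 and 6.05 in tcf∆N-long, against 5.95 and 5.81 in WT. Those arrays lay below WT in Wg++ and above it in arm∆N and tcf∆N-long. The differences stayed under the fold threshold (limma adjusted p = 0.514, 0.419 and 0.452 in the same order). Where MtnB was low, arrays also lay outside WT in Otk++ (6.05 and 6.30), arm∆N-tcf∆N-short (6.18 and 6.13) and DisArmed (5.79 and 5.63). Of the 9 copper handling genes tested out of 12 listed, 1 was higher and 3 were lower in Wg++, 2 higher and 2 lower in arm∆N, none in tcf∆N-long, and 1 lower in tcf∆N-short. For this and the lists that follow, the shares of all genes called were 40.8% in Wg++, 19.6% in arm∆N, 3.74% in tcf∆N-long and 7.74% in tcf∆N-short, and the copper count in Wg++ was close to that share. The list's median log2 fold change was −0.13 in Wg++ (all genes −0.11), −0.09 in arm∆N (all genes −0.08) and −0.33 in tcf∆N-long (all genes −0.08). Mco1, which encodes a multicopper oxidase, read 7.14 and 7.27 in Wg++, 7.96 and 8.72 in arm∆N, and 4.20 and 4.35 in tcf∆N-long, against 4.98 and 4.92 in WT. It therefore rose in Wg++ (log2 fold change 2.25, adjusted p = 0.000944) and in arm∆N (3.39, adjusted p = 0.000144) and not in tcf∆N-long (−0.67, adjusted p = 0.288), and it fell in tcf∆N-short (−1.39, adjusted p = 0.0281).

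Ctr1A, the main copper importer, was higher in arm∆N, with 6.64 and 5.78 there against 4.18 and 5.72 in WT (log2 fold change 1.26, adjusted p = 0.0706). The gap between its 2 WT arrays exceeded that fold change. Of the genes that carry copper to mitochondria, Cox17 fell by 1.67 in Wg++ (adjusted p = 0.00563) and by 0.98 in arm∆N (adjusted p = 0.0962), Cox11 fell by 0.73 in Wg++ and by 0.65 in arm∆N, and Scox fell by 0.85 in Wg++ (adjusted p = 0.0406). ATP7, the copper exporter, was not called in any of the 7 comparisons with WT. The importer Ctr1B, which copper shortage is known to induce through MTF-1, stayed between 2.30 and 2.54 and was not tested, and Ctr1C was at 2.29 on every array.

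Of the 14 zinc transport genes tested out of 17 listed, 1 was higher and 5 were lower in Wg++, 1 was lower in arm∆N, and none was called in tcf∆N-long, so that the share called in Wg++ was again close to the 40.8% of all genes. The exporter gene ZnT49B rose by 1.62 in Wg++ (adjusted p = 0.00581). ZnT35C, a metal-responsive exporter through MTF-1, fell by 1.05 in Wg++ (adjusted p = 0.00663) and the importer gene Zip102B by 1.70 (adjusted p = 0.00159). The part of MTF-1 in these changes and in those of MtnB was not tested. ZnT86D fell in both Wg++ (−0.98) and arm∆N (−0.76). Of 10 iron handling genes tested out of 11, the transferrin genes Tsf1 (2.25, adjusted p = 0.000925) and Tsf3 (1.78, adjusted p = 0.00439) rose in arm∆N, and mfrn, a mitochondrial iron carrier gene, fell in Wg++ (−0.82). Tsf1 also rose in arm∆N-tcf∆N-short (1.29, adjusted p = 0.0382), Irp-1B, an iron regulatory protein gene, fell in DisArmed (−1.22, adjusted p = 0.0783), and no iron gene was called in tcf∆N-long.

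Metals also induce genes of redox defence and heat shock. Of 12 redox genes tested out of 15, 3 were higher and 2 lower in arm∆N, 1 higher and 2 lower in Wg++ (a smaller share than the 40.8% of all genes), none in tcf∆N-long, and 4 higher in tcf∆N-short (7.74% of all genes called), where MtnB was at 0.05. GstD2, a glutathione S-transferase gene, had a log2 fold change of 4.94 in tcf∆N-short (adjusted p = 0.00498) and of 3.08 in arm∆N (adjusted p = 0.0309), and GstD5, of the same family, fell in DisArmed (−2.14, adjusted p = 0.0201). Of the 5 heat shock genes tested out of 12, Hsp68 was higher in tcf∆N-short (0.76, adjusted p = 0.0342), and no other call was made in the 7 comparisons with WT.

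**Figure D4:**
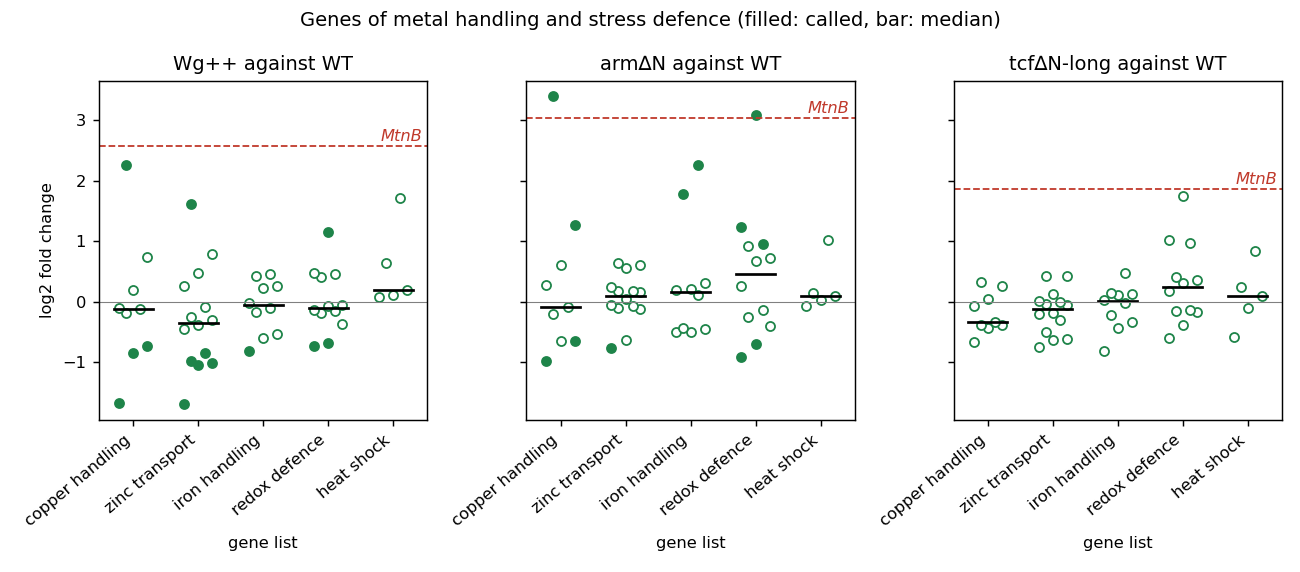
Log2 fold change against WT (vertical axis) of the tested genes of 5 lists (horizontal axis) in Wg++, arm∆N and tcf∆N-long, with filled points for called genes, bars for list medians and a dashed line for MtnB. The copper handling point highest in Wg++ (2.25) and arm∆N (3.39) is Mco1, and the tcf∆N-long panel holds no filled point.

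Since larval metallothioneins are expressed in the gut, marker genes of midgut and other tissues were read on the same arrays. The paper states that its naïve embryos do not gastrulate, so that cell types of endoderm and mesoderm are avoided. The markers are therefore read as genes, and whether such tissues formed was not tested. Of 8 midgut genes, 5 were lower in Wg++ and 2 in arm∆N, whereas 4 were higher in tcf∆N-long, 2 in tcf∆N-short and 3 in arm∆N-tcf∆N-short. All genes were called at 40.8% in Wg++, 19.6% in arm∆N, 3.74% in tcf∆N-long, 7.74% in tcf∆N-short and 3.18% in arm∆N-tcf∆N-short, so that the count in arm∆N was near its background. Their mean log2 value was 5.50 and 5.50 on the Wg++ arrays, 6.04 and 6.29 in arm∆N, 8.29 and 8.25 in tcf∆N-long, 7.52 and 8.0 in tcf∆N-short and 8.19 and 8.41 in arm∆N-tcf∆N-short, against 6.67 and 6.56 in WT. 2 of the 8 had means under 3 in Wg++ and 2 in arm∆N, and none did in tcf∆N-long or WT. The marker mean lay below WT in Wg++ and arm∆N and above it in tcf∆N-long, tcf∆N-short and arm∆N-tcf∆N-short. The members did not all move with the mean. In tcf∆N-short Bace (log2 fold change 4.97) and Mal-A1 (3.40) were the called genes. GATAe (−0.96) and Jon65Aiv (−1.60) were lower there and not called. In arm∆N Bace (−1.36) and Mal-A1 (−3.31) were called, while srp (0.08), mex1 (0.74) and Jon65Aiv (1.42) were higher and not called. How the marker mean relates to MtnB was not tested. Of 4 copper cell markers 3 were tested, with a mean of 5.12 and 5.27 in Wg++, 5.97 and 6.15 in arm∆N, and 6.83 and 7.11 in tcf∆N-long, against 6.93 and 7.0 in WT. Vha100-4, a subunit gene of the proton pump of copper cells, fell by 4.13 in Wg++ (adjusted p = 0.00037) and by 3.90 in arm∆N (adjusted p = 0.000657). dve, a transcription factor gene of the middle midgut, rose by 1.02 in arm∆N (adjusted p = 0.032). Ptx1 fell in Wg++ (−1.16, limma adjusted p = 0.0115). In tcf∆N-short (mean 4.86 and 5.60) all 3 were lower: dve (−1.32), Ptx1 (−1.36) and Vha100-4 (−2.53). Calls were thus 2 lower in Wg++, 1 higher and 1 lower in arm∆N, 3 lower in tcf∆N-short and none in the other genotypes. The part of any such tissue in the metallothionein values was not tested. Of the Malpighian tubule list 3 genes were tested, ct, NaPi-T and byn, and NaPi-T stayed between 2.29 and 2.93. Of the list of haemocytes and fat body the 3 tested were the haemocyte genes Hml, He and crq. Its fat body genes Fbp1, Lsp2 and Adh were not tested. In the order tubule, haemocytes and epidermis (5 tested), calls were 1 lower, 0 and 1 lower in Wg++. They were 0, 0 and 1 higher in arm∆N, and none was called in tcf∆N-long.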

How the data were processed

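The authors hybridised RNA to Affymetrix Drosophila 2 arrays and deposited log2 values after GC-RMA (version not given in the sources used here). Lower values end at a common floor of 2.289. Their methods describe the 2 arrays of a genotype as biological replicates. Of 18952 probesets, 13647 map to 1 gene in the platform annotation, 402 to several and 4903 to none. Following the methods, each gene was represented by its probeset of largest interquartile range, and 8862 genes above 2.5 on at least 2 arrays were tested. wg and pan were named through the study's supplementary table.

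limma 3.58.1 (R 4.3.3) modelled all 16 arrays with a mean for each genotype, 8 residual degrees of freedom and eBayes, after tests on simulated data. Named were the 4 genes, the 5 genes most correlated with each, up to 4 called genes per list (others as counts or after their values were seen), MTF-1, Ctr1A, Ctr1B, ATP7, ZnT35C, wg, pan and otk. Members and lists were chosen with earlier results of these data known. The number of arrays limits the precision.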

Additional observations from a re-analysis of the deposited data

Results flagged for a closer look

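The effect of arm∆N on MtnB differed with and without tcf∆N-short, by limma's interaction contrast: −2.76 on the log2 scale (SE 0.63, adjusted p = 0.0352). MtnB was 0.28 higher in arm∆N-tcf∆N-short than in tcf∆N-short, and 3.04 higher in arm∆N than in WT. With only the arrays compared the contrast was not called (adjusted p = 0.162). tcf∆N-short and WT were both near the lowest value of the arrays for MtnB.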

How the results depend on the processing

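The alternatives were no filter on low values, a filter at 4, the probeset of highest mean, cyclic loess between arrays, the replicate number as a block, a robust prior with trend, only the arrays compared, a false discovery rate under 5%, and each array left out. MtnB remained called in Wg++ and arm∆N against WT in all of them (log2 fold changes 2.06 to 3.07 and 2.39 to 3.69). The F test called 1 metallothionein gene under each. A filter at 4 removes MtnC, and only the arrays compared gives no separate F test.

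Against WT in tcf∆N-long, and in tcf∆N-short against tcf∆N-long, the count of 1 metallothionein gene became 0 with no filter, with only the arrays compared and at 5%, and was 0 to 0 with single arrays left out. In Wg++ against Otk++ the count of 1 became 2, MtnD being added, with a filter at 4 (adjusted p = 0.0867), with trend and robust estimation (0.0995), with cyclic loess (0.0898) and without Otk++ replicate 2 (3.88, adjusted p = 0.0494), in a range of 1 to 2 without single arrays. With only the arrays compared, arm∆N-tcf∆N-short against arm∆N (adjusted p = 0.163 for MtnB) and the interaction (0.162) went to 0. Without single arrays, arm∆N against tcf∆N-short and arm∆N-tcf∆N-short against arm∆N each gave 1 to 2. The second gene was MtnA without tcf∆N-short replicate 2 and MtnC without arm∆N-tcf∆N-short replicate 1. Pairs with MtnD called numbered 1 with no filter and 4 with a filter at 4, and 0 to 7 without single arrays, alternatives chosen after seeing the data, as were those for MtnB, which gave 10 to 15 pairs. The cause of these changes was not tested.

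The replicate numbers were not taken to pair the samples, since no label ties them to a shared day or parent. Whether arrays of 1 replicate number share such a factor was not tested. With the replicate number as a block, limma called more genes in every comparison. The number called rose from 29 to 402 in Otk++ against WT and from 331 to 790 in tcf∆N-long against WT. Differences of replicate 1 minus 2 correlated between genotypes at −0.53 to 0.68, over 0.1 in 19 of 28 pairs and under −0.1 in 5. Among the metallothionein genes, tcf∆N-short against WT gave a count of 1 in place of 0 with the block (MtnA, −0.94, limma adjusted p = 0.0988). The count was 2 in arm∆N against tcf∆N-short (MtnA, adjusted p = 0.0934) and 2 in Wg++ against Otk++ (MtnD, adjusted p = 0.0944). MtnD was called in 4 pairs.

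Of 765 values of single genes under alternatives, 716 kept direction and call, 16 lost and 9 gained a call, and 24 reversed, all uncalled and with 1 array left out. Their ranges without single arrays follow. MtnA ran between −0.34 and 0.19 in arm∆N against WT (0.18 without arm∆N replicate 1), −0.19 and 0.73 in Wg++ against Otk++, −0.16 and 0.54 in arm∆N-tcf∆N-short against tcf∆N-short (−0.15 without arm∆N-tcf∆N-short replicate 2), and −0.08 and 0.62 in the interaction. MtnB ran between −0.04 and 0.15 in tcf∆N-short against WT (−0.02 without WT replicate 2), −1.13 and 0.17 in Wg++ against arm∆N (0.03 without Wg++ replicate 2), −0.15 and 0.82 in arm∆N-tcf∆N-short against WT, and −0.20 and 0.77 in arm∆N-tcf∆N-short against tcf∆N-short. MtnC ran between −0.01 and 0.05 in Wg++ against arm∆N, and −0.01 and 0.60 both in arm∆N-tcf∆N-short against arm∆N and in the interaction. Against WT, MtnD ran between −0.15 and 2.60 in Wg++, −0.50 and 2.25 in arm∆N, −0.03 and 2.73 in tcf∆N-long, −2.19 and 0.56 in tcf∆N-short, and −2.66 and 0.21 in Otk++ (0.15 without WT replicate 1). It ran between −0.01 and 0.70 in Wg++ against arm∆N, and −1.92 and 0.65 in arm∆N-tcf∆N-short against tcf∆N-short. Signal near background limits MtnC everywhere and MtnB in 5 genotypes.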
